A study of Mus musculus with 8 samples.

Results

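Replication-dependent histone genes were taken as every gene whose symbol begins with Hist1h, Hist2h, Hist3h or Hist4h in 4 deposited tables of gene comparisons, which gave 61 of the 16896 genes listed in any of the tables. By symbol, 5 belong to the linker histone H1, 16 to H2A, 16 to H2B, 11 to H3 and 13 to H4. By cluster, 50 carry the Hist1 prefix, 8 the Hist2 prefix, 2 the Hist3 prefix and 1 the Hist4 prefix. A total of 58 were listed in all tables. Hist1h2al is annotated as a processed pseudogene and lies apart from the other Hist1 genes on chromosome 13.

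TT-seq, which reads newly made RNA, was applied to the male mouse embryonic stem cell line ES-E14TG2a (E14), in which cells were given 500 nM 4-thiouridine (4sU) for 5 min so that RNA made in that pulse could be captured. Wildtype E14 was represented by 3 libraries, called biological replicates in the labels. Single-targeted cells were 2 lines, 1 homozygous at H3f3a (H3f3a A/A H3f3b WT/WT) and 1 homozygous at H3f3b (H3f3a WT/WT H3f3b A/A), where A marks an allele encoding histone H3.3 with alanine in place of lysine 122. Dual-targeted cells were 2 clones with H3f3a A/A H3f3b WT/A, called the clones here, and a single line with H3f3a WT/A H3f3b A/A, called the third dual-targeted line. All groups were E14 cells treated alike with 4sU, and each mutant line is a separate line profiled in 1 library, so lines and not repeat cultures give the spread of a mutant group. The labels describe a LIF medium and a LIF medium with inhibitors of GSK3 and MEK, and do not say which was used here.

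Replication-dependent histone genes supply the proteins that wrap newly copied DNA, and their RNA is made mainly in S phase. Proteins H2A, H2B, H3 and H4 form the nucleosome core, while H1 binds the linker DNA between nucleosomes. Their transcripts are unusual in ending at a conserved stem-loop, which SLBP binds, in place of a poly(A) tail, and the genes sit in clusters gathered at a nuclear structure, the histone locus body, where NPAT switches them on. H3.3, the protein altered here, is a variant made throughout the cell cycle from H3f3a and H3f3b, which lie outside these clusters and are not among the 61 genes.

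The stem-loop is the sequence the class is best known by, and it was found in the annotated transcripts of 40 members (GENCODE release M21, GRCm38). It began 21 to 58 bases after the stop codon, at a median of 31. A further 20 members had no stem-loop in their model, of which 15 had models with under 20 bases after the stop codon, and Hist1h2al has no annotated coding part. Among genes with at least 100 bases after the stop codon, 23 of 26 members held the motif in those bases, against 3 of 17864 other protein-coding genes (0.0168%), namely H2afx, H2bfm and Nemp1. H2afx encodes a histone H2A variant. The sites of 9 members are shown because they cover every class and the genes described next, written 5′ to 3′ as DNA with the stem and loop in capitals.
Hist1h1c, chr13:23739507-23739532, plus strand: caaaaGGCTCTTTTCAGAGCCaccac
Hist1h1e, chr13:23621777-23621802, minus strand: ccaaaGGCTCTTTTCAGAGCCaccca
Hist1h2ac, chr13:23683472-23683497, minus strand: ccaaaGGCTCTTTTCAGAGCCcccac
Hist1h2bg, chr13:23571838-23571863, plus strand: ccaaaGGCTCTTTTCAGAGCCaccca
Hist1h2bk, chr13:22036295-22036320, plus strand: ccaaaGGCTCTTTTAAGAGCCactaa
Hist1h3d, chr13:23576239-23576264, plus strand: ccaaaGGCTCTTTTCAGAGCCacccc
Hist1h4c, chr13:23698084-23698109, minus strand: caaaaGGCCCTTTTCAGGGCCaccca
Hist1h4j, chr13:21735432-21735457, plus strand: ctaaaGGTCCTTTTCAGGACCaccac
Hist1h4i, chr13:22040961-22040986, minus strand: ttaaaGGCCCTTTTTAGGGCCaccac
The form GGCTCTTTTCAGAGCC was present in 21 members, made up of 3 H1, 7 H2A, 7 H2B and 4 H3 genes. H4 genes carried other stems, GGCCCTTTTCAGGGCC in 7, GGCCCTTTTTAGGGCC in 2 and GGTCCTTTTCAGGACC in 2. The form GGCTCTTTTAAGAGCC occurred in 2 H2B and 3 H3 genes.

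Promoters were examined in RefSeq windows (GRCm38.p6) that run from 250 bases before to 50 bases after a gene's start, and 55 of the 61 members had one. Each was searched on both strands, with overlaps allowed, for CCAAT, for TATAAA, for the octamer ATTTGCAT and for AAACACA, a motif known from H1 promoters. CCAAT was present in all 5 H1, 15 of 15 H2A, 14 of 14 H2B and 9 of 9 H3 windows and in 3 of 12 H4 windows, against 37.4% of all 32851 windows. TATAAA was present in 34 of 55 members against 13.6% of all windows. The octamer was found in 7 of 15 H2A and 6 of 14 H2B windows and in none of the H1, H3 and H4 windows searched, against 1.74% of all windows. AAACACA occurred in 4 of 5 H1 windows, all but that of Hist1h1a, and in 8 of 55 members against 7.18% of all windows. The 150 bases before the start are shown for 6 members whose labelled RNA is described below, with matches on either strand in capitals.
Hist1h1a, chr13:23763518-23763667, plus strand: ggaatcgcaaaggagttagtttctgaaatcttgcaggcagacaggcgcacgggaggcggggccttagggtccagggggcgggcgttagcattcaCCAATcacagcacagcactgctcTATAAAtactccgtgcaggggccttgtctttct
Hist1h1e, chr13:23622559-23622708, minus strand: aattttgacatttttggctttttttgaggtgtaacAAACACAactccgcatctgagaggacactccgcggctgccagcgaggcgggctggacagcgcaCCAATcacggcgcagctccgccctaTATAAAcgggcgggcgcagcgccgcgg
Hist1h2ac, chr13:23683960-23684109, minus strand: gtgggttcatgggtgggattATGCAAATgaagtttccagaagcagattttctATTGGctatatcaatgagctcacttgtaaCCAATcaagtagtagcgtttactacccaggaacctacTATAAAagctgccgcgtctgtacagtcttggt
Hist1h2bg, chr13:23571250-23571399, plus strand: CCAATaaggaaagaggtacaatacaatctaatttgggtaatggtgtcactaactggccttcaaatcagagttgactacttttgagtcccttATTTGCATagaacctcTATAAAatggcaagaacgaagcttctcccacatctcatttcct
Hist1h3d, chr13:23575613-23575762, plus strand: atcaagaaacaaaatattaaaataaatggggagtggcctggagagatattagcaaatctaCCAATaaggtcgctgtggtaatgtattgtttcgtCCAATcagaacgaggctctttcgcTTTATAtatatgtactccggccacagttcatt
Hist1h4c, chr13:23698459-23698608, minus strand: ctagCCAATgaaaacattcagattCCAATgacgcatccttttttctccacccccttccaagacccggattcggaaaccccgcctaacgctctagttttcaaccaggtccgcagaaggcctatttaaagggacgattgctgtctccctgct
The stretch shown for Hist1h2bg lies between that gene and Hist1h2ae, which is read in the other direction 175 bases away, so both share the octamer printed.

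Since the values are group comparisons made by the authors, the depth of single libraries is unknown. The median histone gene had a mean normalized count of 112 in the dual-targeted and 146 in the single-targeted comparison with wildtype in the authors' deposited tables, where the median of all genes was 144 and 153. H3f3a stood at a log2 fold change of 0.13 in dual-targeted and -0.12 in single-targeted lines, and H3f3b at 0.06 and -0.01, in the authors' deposited tables, and none of these passed an adjusted p of 0.05. In the 2 clones H3f3b was higher, at 0.85 (adjusted p = 0.00351), in the authors' deposited table. A substitution need not alter transcript level, so this does not check the labels. All 10 embryonic stem cell markers examined were listed. In dual-targeted cells 6 were called higher, beside 10.8% of all genes, in the authors' deposited table. There 0 were lower (0 also at an unadjusted p under 0.05), beside 10.1% of all genes. In single-targeted lines 1 was higher and 0 lower, beside 1.49% and 1.47% of all genes, in the authors' deposited table. The rebuilt group means of these markers (explained below) summed to 18248 normalized counts in wildtype, 18691 in single-targeted and 23124 in dual-targeted lines. Of 12 markers of fibroblasts, endoderm and neural cells, 6 were in every table, with sums of 397 in wildtype, 336 in single-targeted and 616 in dual-targeted lines. Within the dual-targeted group the sum was 513 in the clones and 822 in the third dual-targeted line. Col1a1, Col1a2, Col3a1, Sox17 and Foxa2 were in none of the tables. Nes and Tubb3, neural genes, were higher in dual-targeted lines at log2 fold changes of 1.91 and 1.07 in the authors' deposited table, the only 2 called of the 7 markers listed there. Pax6 and Sox1, also neural, stood at -0.33 (adjusted p = 0.232) and -0.32 (adjusted p = 0.335) in the same deposited table of the authors, and Pax6 was lower in the clones at -0.58 (adjusted p = 0.0429) by the authors' deposited table for these. The part of such markers in the histone results was not tested.

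Dual-targeted lines were set against wildtype to ask how labelled RNA differed with 3 of 4 H3.3 alleles mutant. Genes of the nucleosome core were mostly lower in the dual-targeted lines, and no H1 gene was called there. In the authors' deposited table all 30 histone genes called lower at an adjusted p under 0.05 were core genes, of 56, beside 10.1% of all genes tested. Against 10.8% of all genes called higher, 0 histone genes were higher, and 1 was at an unadjusted p under 0.05, the testis-type H2B gene Hist1h2ba (0.64 ± 0.56 SE, adjusted p = 0.110). The median log2 fold change of the 56 core genes was -0.57 in the authors' deposited table, against 0.01 for all genes, and 52 of 56 lay below 0. By class the same deposited table of the authors gave medians of 0.02 for H1, -0.86 for H2A, -0.89 for H2B, -0.75 for H3 and -0.47 for H4. In a population of cells, fewer cells making histone RNA and less histone RNA per cell cannot be told apart.

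**Figure D1:**
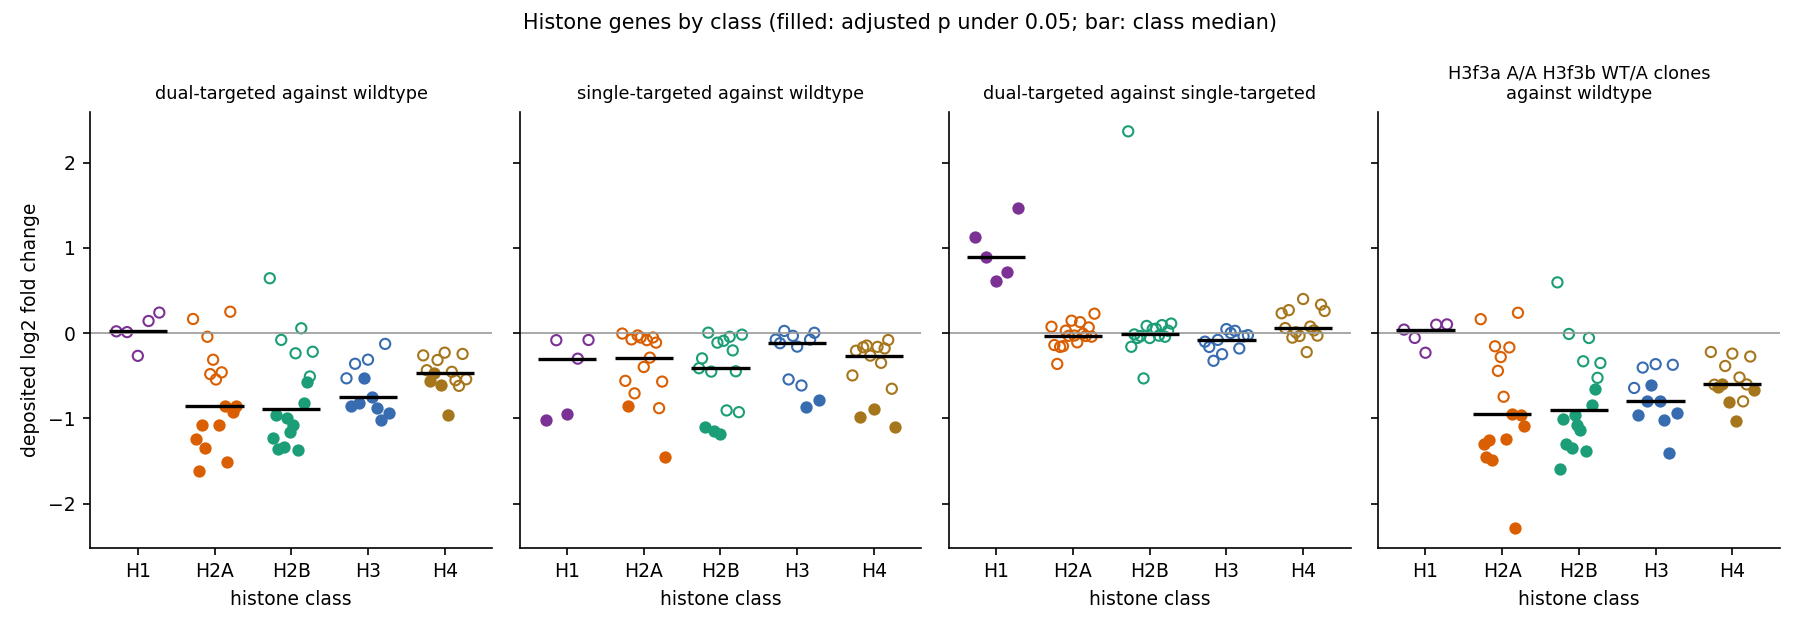
Deposited log2 fold changes (vertical axes) of the histone genes by class in the authors' 4 comparisons, where each circle is 1 gene, filled circles have an adjusted p under 0.05 and bars are class medians. H1 genes lie between -0.27 and 0.24 in the dual-targeted lines and between -0.23 and 0.10 in the clones. They are the only filled circles when dual-targeted are set against single-targeted lines.

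To show levels by group, the mean of each group was rebuilt by subtraction from the mean columns of the tables, which share groups. These rebuilt means are in normalized counts, carry no error and are not divided by gene length, so they serve to compare groups and not genes. Linker histone genes come first. Hist1h1a, the H1 gene with the highest mean count, had rebuilt means of 2213 in wildtype, 982 in single-targeted lines, 2293 in the clones and 2157 in the third dual-targeted line. Hist1h1b stood at 1239, 594, 1157 and 1430 in the same order, and Hist1h1c at 1481, 697, 1180 and 1117. Hist1h1d stood at 1210, 765, 1331 and 1488, and Hist1h1e at 412, 175, 511 and 570. For every H1 gene the single-targeted mean was the lowest of these 4. The dual-targeted means lay on both sides of wildtype. Both were below it for Hist1h1c, between the single-targeted mean and wildtype, and both were above it for Hist1h1d and Hist1h1e. The authors' deposited table called 0 of 5 H1 genes in dual-targeted lines in either direction, beside 10.1% of all genes lower and 10.8% higher. Also 0 of 5 had an unadjusted p under 0.05, with fold changes from -0.27 (Hist1h1c) to 0.24 (Hist1h1e) in the authors' deposited table. At those shares 5 genes are too few for missing calls to set H1 apart from other genes.

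Among core genes, H2A had 9 of 16 members lower in dual-targeted lines by the authors' deposited table. Hist1h2ac, which encodes a common form of H2A, fell from a rebuilt mean of 258 in wildtype to 130 in single-targeted lines, 87.8 in the clones and 61.3 in the third dual-targeted line. Its log2 fold change in dual-targeted lines was -1.62 ± 0.26 (SE, 3 libraries in each group) in the authors' deposited table, the lowest of all 61. Hist1h2ae had rebuilt means of 184, 96.7, 59.8 and 81.3 in the same order of groups, and a deposited fold change by the authors of -1.35 ± 0.28 (adjusted p = 7.45e-06). Hist1h2ab (-1.24 ± 0.28, adjusted p = 2.85e-05), Hist1h2ak (-1.08 ± 0.28, adjusted p = 3.18e-04) and Hist2h2ac (-0.92 ± 0.29, adjusted p = 0.00247) were also lower in the authors' deposited table. So was Hist3h2a, from the small cluster on chromosome 11, at -0.85 ± 0.26 (adjusted p = 0.00221) in the authors' deposited table. The 2 H2A genes above 0 were Hist1h2aa, a testis-type gene (0.17 ± 0.36, mean count 14.3), and Hist2h2ab (0.25 ± 0.41, mean count 11.4), neither of them called in the authors' deposited table. Genes outside the naming rule, such as these, were chosen after their values were seen.

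H2B, the partner of H2A in the nucleosome, had 10 of 16 members lower in dual-targeted lines by the authors' deposited table. The rebuilt means of Hist1h2bg were 360 in wildtype, 229 in single-targeted lines, 132 in the clones and 143 in the third dual-targeted line, so both dual-targeted genotypes lay below the single-targeted mean. Hist1h2be went from 226 in wildtype to 95.3, 84.5 and 79.8 in that order, with all mutant means close together. Lower values in the authors' deposited table were those of Hist1h2bm (-1.38 ± 0.40, adjusted p = 6.81e-04), Hist1h2be (-1.36 ± 0.24, adjusted p = 1.36e-07) and Hist1h2bb (-1.23 ± 0.32, adjusted p = 1.97e-04). Hist1h2bk (-1.08 ± 0.30, adjusted p = 6.28e-04) and Hist1h2bh (-0.99 ± 0.25, adjusted p = 2.21e-04) followed in the authors' deposited table. Hist1h2bf, Hist1h2bl and Hist1h2bn, with fold changes of -0.08, -0.24 and 0.06 and mean counts of 20.0, 47.3 and 37.5, were not called in the authors' deposited table.

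H3 had 7 of 11 members lower in dual-targeted lines, and all 11 lay below 0 in the authors' deposited table. Hist1h3d, the H3 gene with the highest mean count, had rebuilt means of 748 in wildtype, 451 in single-targeted lines, 398 in the clones and 403 in the third dual-targeted line. Its log2 fold change in the authors' deposited table was -0.82 ± 0.22 (adjusted p = 6.71e-04). Hist2h3c2 had rebuilt means of 238, 122, 113 and 122 in the same order, so all mutant means were near each other and below wildtype. In the authors' deposited table it stood at -0.94 ± 0.26 (adjusted p = 7.09e-04), and Hist1h3i at -1.02 ± 0.38 (adjusted p = 0.00629). Hist1h3h (-0.88 ± 0.30), Hist1h3b (-0.85 ± 0.33) and Hist1h3g (-0.75 ± 0.23) were lower too in the authors' deposited table.

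H4 had the median nearest 0 among the core classes and 4 of 13 members lower, though all 13 lay below 0 and 9 had an unadjusted p under 0.05 by the authors' deposited table. Those called were Hist1h4j (-0.96 ± 0.29, adjusted p = 0.00164), Hist1h4c (-0.56 ± 0.24, adjusted p = 0.0281), Hist1h4h (-0.61 ± 0.29, adjusted p = 0.0400) and Hist1h4d (-0.47 ± 0.21, adjusted p = 0.0414) in the authors' deposited table. Hist1h4c had rebuilt means of 478 in wildtype, 224 in single-targeted lines, 281 in the clones and 340 in the third dual-targeted line. Hist1h4i had 920, 449, 705 and 764 in that order. In both genes the single-targeted mean was the lowest and the dual-targeted means lay between it and wildtype. The difference between classes was not tested, since genes are not replicates.

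**Figure D2:**
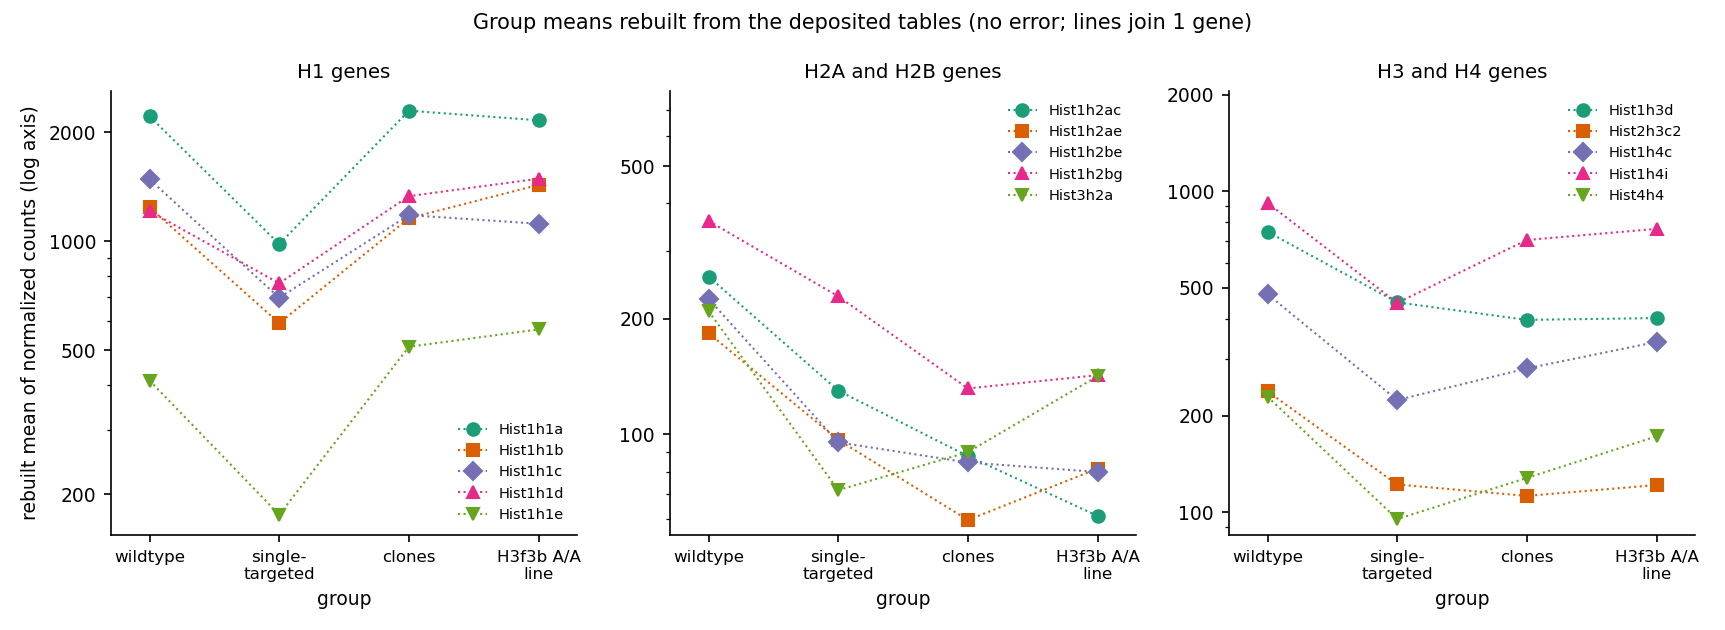
Rebuilt group means in normalized counts (log axes) of the 5 H1 genes and of 5 genes each from H2A with H2B and from H3 with H4, in wildtype, single-targeted lines, the clones and the third dual-targeted line (labelled H3f3b A/A line in the plot). Points carry no error and dotted lines only join the points of a gene: each H1 gene dips in single-targeted lines, while Hist1h2ac, Hist1h2bg and Hist1h3d are lowest in dual-targeted lines. Hist3h2a, Hist1h4c, Hist1h4i and Hist4h4 are lowest in single-targeted lines, as the H1 genes are.

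Single-targeted lines, with 2 of 4 alleles mutant, were set against the same wildtype libraries. Here too histone genes were lower, and H1 genes were among them. The authors' deposited table called 12 of the 57 histone genes with an adjusted p lower, beside 1.47% of all genes tested, and 34 had an unadjusted p under 0.05 in that direction. No histone gene was higher, beside 1.49% of all genes, and 0 had an unadjusted p under 0.05 in that direction in the authors' deposited table. By class the calls were 2 of 5 H1, 2 of 14 H2A, 3 of 14 H2B, 2 of 11 H3 and 3 of 13 H4 genes in the authors' deposited table. The H1 genes called were Hist1h1a (-1.02 ± 0.33, adjusted p = 0.00663) and Hist1h1c (-0.95 ± 0.30, adjusted p = 0.00461), both in the authors' deposited table. Core genes called included Hist1h2bk (-1.19 ± 0.41, adjusted p = 0.00950), Hist1h2bh (-1.14 ± 0.31, adjusted p = 0.00114) and Hist1h2be (-1.10 ± 0.31, adjusted p = 0.00194) in the authors' deposited table. Hist4h4, a lone H4 gene on chromosome 6, stood at -1.11 ± 0.35 (adjusted p = 0.00571) and Hist1h4i at -0.89 ± 0.31 (adjusted p = 0.0111) in the authors' deposited table. Hist3h2a had the lowest fold change, -1.45 ± 0.29, and Hist1h4c stood at -0.98 ± 0.28 (adjusted p = 0.00252) in the authors' deposited table. Hist1h2ac (-0.86 ± 0.29), Hist1h3h (-0.87 ± 0.38) and Hist2h3c2 (-0.78 ± 0.33) complete the 12 in the authors' deposited table.

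The deposited fold changes are shrunken toward 0, so their sizes in different tables cannot be set against each other directly. The median rebuilt log2 ratio to wildtype, which is not shrunken, was -0.81 in single-targeted and -0.80 in dual-targeted lines over the 58 histone genes with a value. For the 53 core genes with a value it was -0.80 and -0.86. For the 5 H1 genes it was -1.09 in single-targeted and 0.02 in dual-targeted lines. By core class it was -0.89 and -1.05 for H2A, -0.85 and -1.12 for H2B, -0.44 and -0.84 for H3 and -0.81 and -0.62 for H4, in the same order. These rebuilt ratios put every H1 gene below wildtype in the single-targeted group. In the dual-targeted group the H1 genes lay between -0.35 and 0.37. The rebuilt ratios have no error or test. Hist1h1e shows the gap between scales: its rebuilt ratio in single-targeted lines was -1.23, while the authors' deposited table gave -0.08 ± 0.20 (adjusted p = 0.420). All 12 genes called lower in single-targeted lines were among the 39 histone genes whose mean count reached 100, and 0 of 20 below that were called in the authors' deposited table, where dual-targeted lines had 21 of 37 and 9 of 24.

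The direct comparison of dual-targeted with single-targeted lines tests that difference. The only histone genes called were the 5 H1 genes, all higher in dual-targeted lines, of 48 histone genes with an adjusted p, beside 4.37% of all genes called higher in the authors' deposited table. Hist1h1e had a log2 fold change of 1.47 ± 0.37 (SE, 3 against 2 libraries, adjusted p = 7.25e-04) and Hist1h1a of 1.13 ± 0.25 (adjusted p = 1.46e-04) in the authors' deposited table. Hist1h1b (0.89 ± 0.37, adjusted p = 0.0210), Hist1h1d (0.71 ± 0.30, adjusted p = 0.0269) and Hist1h1c (0.61 ± 0.26, adjusted p = 0.0326) were closer to the threshold in the authors' deposited table. The clones and the third dual-targeted line both had rebuilt means above the single-targeted mean for each H1 gene, whereas the 2 single-targeted lines enter as a mean and could not be seen apart. No core gene was called, with 43 tested, and beside 2.69% of all genes called lower, 0 histone genes were lower in the authors' deposited table. At an unadjusted p under 0.05, 2 core genes were lower, Hist1h2bg (-0.53 ± 0.30, adjusted p = 0.0845) and Hist1h2ac (-0.36 ± 0.34, adjusted p = 0.203), and 3 were higher in the authors' deposited table. Those 3 were Hist1h4i (0.40 ± 0.36, adjusted p = 0.169), Hist2h4 (0.33 ± 0.29, adjusted p = 0.212) and Hist1h2ba, which had 2.37 ± 0.85 at a mean count of 20.7 without an adjusted p in the authors' deposited table. The median of the 55 core genes listed was -0.02 in the authors' deposited table, against -0.00 for all genes. Median mean counts there were 931 for H1 and 67.9 for core genes. At such counts a missing call does not show that core genes were alike in both groups. Rebuilt log2 ratios of dual-targeted to single-targeted means have no error or test. Their medians were 1.07 for H1, -0.19 for H2A, -0.15 for H2B, -0.29 for H3 and 0.22 for H4.

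The clones were also compared with wildtype by the authors, with libraries that are part of the dual-targeted comparison. The authors' deposited table gave 31 of 59 histone genes with an adjusted p as lower, beside 10.3% of all genes, and 0 as higher, beside 9.05% of all genes. All 31 were core genes, 1 histone gene, Hist1h2ba, was higher at an unadjusted p under 0.05, and the core median was -0.71 in the authors' deposited table. Hist2h2aa2 had the lowest fold change, -2.29 ± 0.58 (adjusted p = 1.20e-04) by the authors' deposited table, and rebuilt means of 45.6 in wildtype, 7.60 in the clones and 24.8 in the third dual-targeted line. Its transcript model is wholly shared with another locus, so its own level is uncertain. Hist4h4 was lower in the clones at -0.66 ± 0.32 (adjusted p = 0.0409) and not called with the third dual-targeted line included, at -0.54 ± 0.28 (adjusted p = 0.0609), in the authors' deposited tables. Rebuilt ratios to wildtype for H1 genes ran from -0.33 to 0.31 in the clones.

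**Figure D3:**
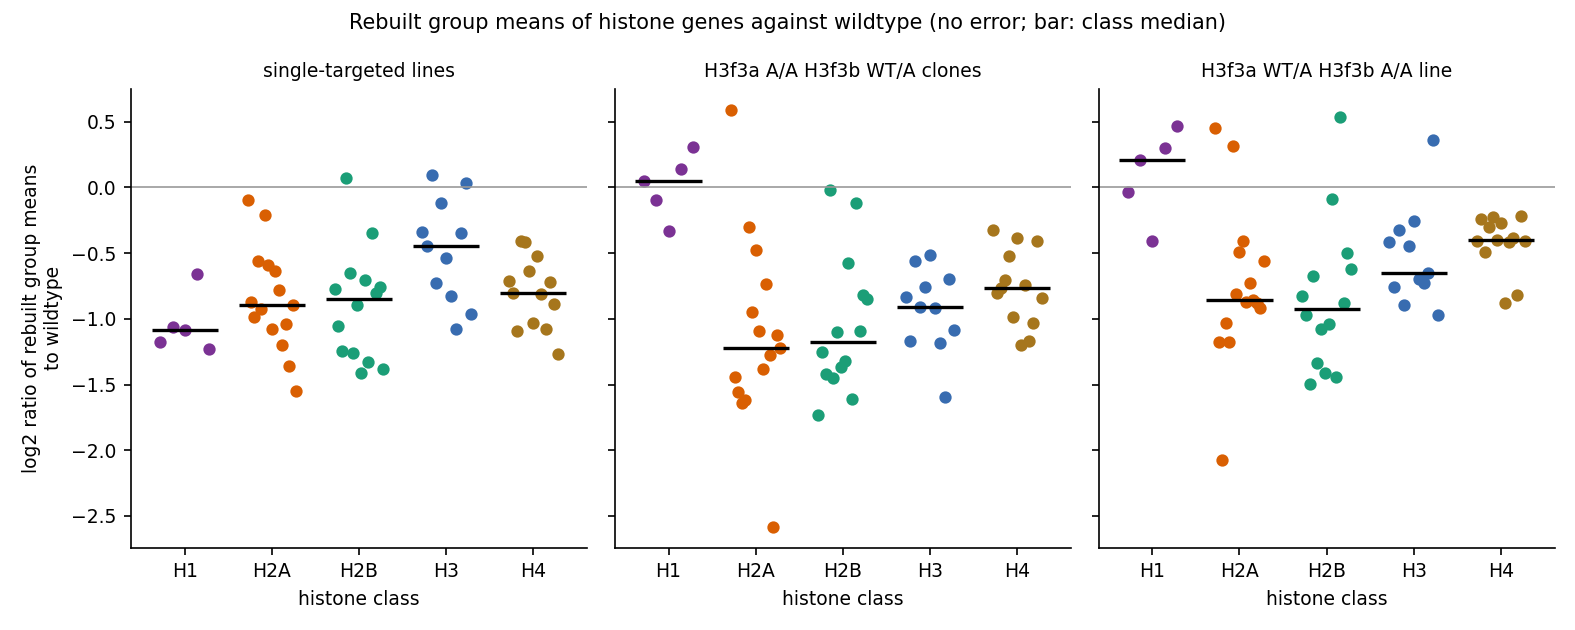
Log2 ratio of rebuilt group means to wildtype (vertical axis) by histone class for single-targeted lines, the clones and the third dual-targeted line, with 1 point per gene and bars at class medians, without error. H1 genes lie between -1.23 and -0.66 in single-targeted lines and on both sides of 0 in both dual-targeted genotypes, while most core genes lie below 0 in all panels.

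Histone genes of a class resemble each other, and reads from near-identical stretches can be split or dropped in counting. Of all stretches of 50 bases in a member's model, the median member shared 45.8% with another locus. H1 genes shared 0% to 8.54%, while class medians were 62.6% for H2A, 41.9% for H2B, 60.4% for H3 and 39.5% for H4. Core genes therefore differ from H1 genes in this respect as well as in their change. Among members with over 50% shared, 13 of 26 were lower in dual-targeted lines (median -0.59), against 17 of 35 with less (median -0.53), in the authors' deposited table. In single-targeted lines 3 of 26 (median -0.11) and 9 of 33 (median -0.45) were lower, at median mean counts of 55.7 and 178, in the authors' deposited table. The members with less sharing include all 5 H1 genes, and the part of sharing in these counts was not tested. Of the 11 members with under 10% shared, 5 of them H1 genes, 2 were lower in dual-targeted and 4 in single-targeted lines in the authors' deposited tables. The 2 were Hist3h2a, with 2.00% shared, and Hist2h2bb, an H2B gene with 0% shared, at -0.58 ± 0.26 (adjusted p = 0.0360) in the authors' deposited table. Hist1h4m, Hist1h4n and Hist2h2aa2 have a coding sequence identical to that of another annotated gene. The annotation places 21 members over other genes, among them Hist1h1e within the span of Hist1h2be, and no source used here says whether counting used strand.

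The annotated end of a transcript separated members too. In 21 members the model ran over 100 bases past the stem-loop, in 19 it ended within 100 bases of it, and 21 models held none. Single-targeted lines had 9 of 21, 1 of 19 and 2 of 19 members lower in these groups, with medians of -0.65, -0.18 and -0.11, in the authors' deposited table. Dual-targeted lines had 12 of 21, 11 of 19 and 7 of 21 lower, with medians of -0.54, -0.75 and -0.45, in the authors' deposited table. Without H1 genes the dual-targeted counts were 12 of 18, 11 of 19 and 7 of 19, with medians of -0.69, -0.75 and -0.46, in the authors' deposited table. The single-targeted counts were then 8 of 18, 1 of 19 and 1 of 17, with medians of -0.68, -0.18 and -0.11, in the authors' deposited table. Over all members median mean counts were 299, 114 and 59.0 in the single-targeted comparison in the authors' deposited table, so longer models went with higher counts and the part of each was not tested.

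The Hist1 genes lie on chromosome 13 in a stretch of 19 genes (chr13:21715763-22043676, GRCm38) and another of 30 (chr13:23531050-23934851). Falls were spread over both, with 9 of 19 and 16 of 30 genes lower in dual-targeted lines by the authors' deposited table. The Hist2 cluster on chromosome 3 had 4 of 8 lower, with a median of -0.54 against -0.55 for the 50 Hist1 genes, in the authors' deposited table. Of 14 non-histone genes inside the Hist1 stretches and the Hist2 cluster, 13 were in the dual-targeted table, where 0 were lower, also 0 at an unadjusted p under 0.05, and the median was 0.05 in the authors' deposited table. With 10.1% of all genes lower and a median mean count of 20.7 over these 13, so few genes at such counts do not set the neighbours apart from other genes. Zfp184, a zinc finger gene between histone genes of the stretch of 19, stood at 0.05 ± 0.22 (adjusted p = 0.883) in the authors' deposited table. The 2 neighbours that were higher, Gm11279 (3.33 ± 0.74) and Gm44456 (1.68 ± 0.77), had low mean counts in the authors' deposited table and were named after their values were seen. On the rest of chromosome 13, 8.70% of 621 genes were lower and the median was -0.01 in the authors' deposited table.

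**Figure D4:**
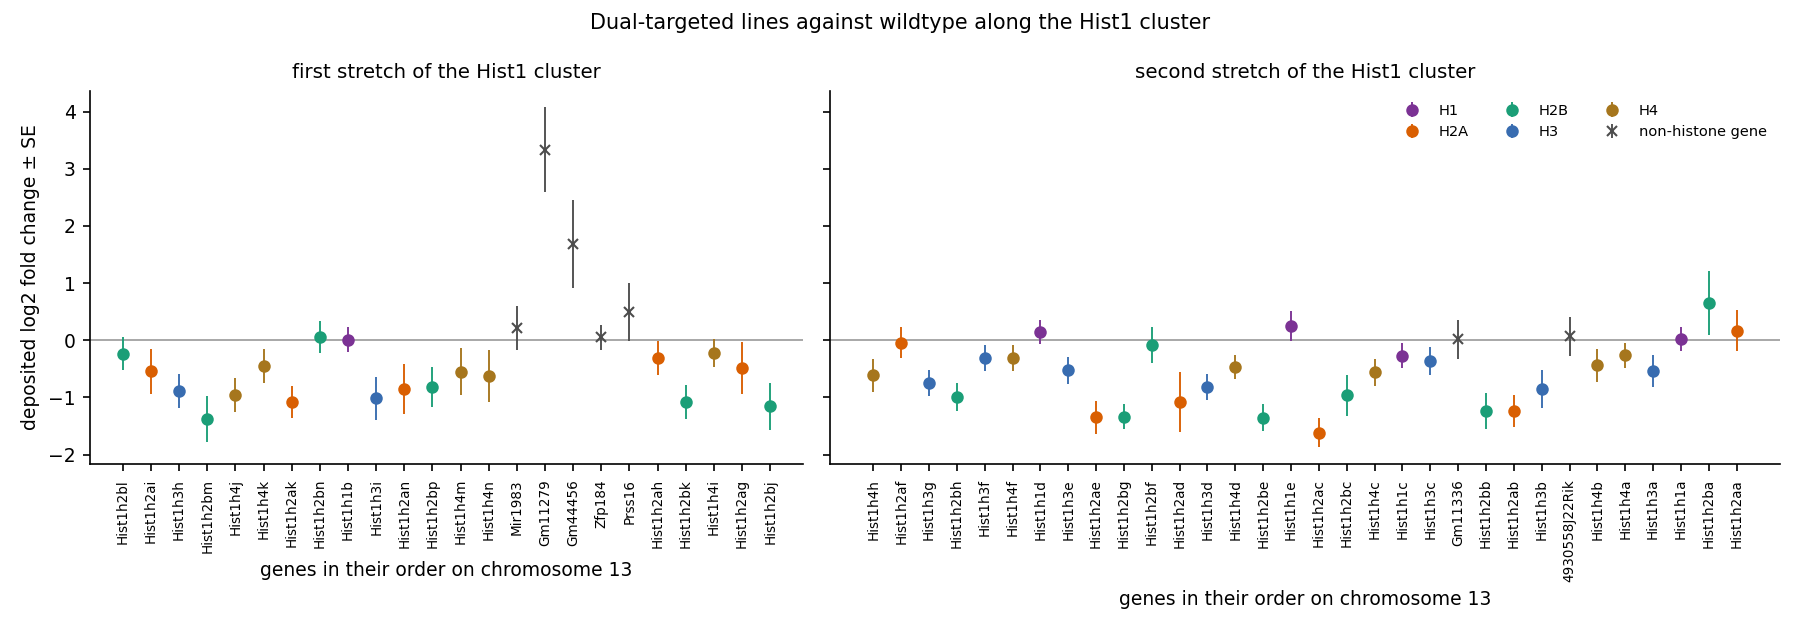
Deposited log2 fold changes of dual-targeted lines against wildtype (vertical axis, bars are the authors' SE) for genes of the Hist1 cluster in their order on chromosome 13, coloured by histone class, with crosses for non-histone genes. Most core genes lie below 0 in both stretches, with Hist1h2bn, Hist1h2aa and Hist1h2ba above it, while the H1 genes run from -0.27 to 0.24 and Zfp184 lies at 0.05.

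Neighbouring genes were also read in pairs. Of 10 pairs of H2A and H2B genes read away from each other across 175 to 305 bases, both were lower in 3 and 1 of the pair in 5 in dual-targeted lines by the authors' deposited table. Over each whole class 9 of 16 H2A and 10 of 16 H2B genes were lower in the authors' deposited table. Whether neighbours share a change was not tested. Hist1h2ae and Hist1h2bg, whose shared promoter is printed above, stood at -1.35 and -1.34 in the authors' deposited table. Across 295 bases, Hist1h2ak stood at -1.08 ± 0.28 and Hist1h2bn at 0.06 ± 0.28 in the authors' deposited table, although 86.4% of the Hist1h2bn model is shared with other loci. Histone genes are short, and 556 other protein-coding genes shorter than 3000 bases had a median of 0.20, with 1.62% lower and 19.2% higher, in the authors' deposited table of dual-targeted lines. The 57 histone genes of that size had a median of -0.54 in the same table deposited by the authors.

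Splits of H2A and H2B by promoter motif hold few genes and were not tested. Of 6 H2B genes with the octamer 5 were lower in dual-targeted lines (median -1.16), and of 8 without it 4 were lower (median -0.53), in the authors' deposited table. For H2A the counts were 5 of 7 with it (median -0.92) and 4 of 8 without it (median -0.70) in the authors' deposited table. The windows of 9 H3 and 12 H4 genes held no octamer, and 7 and 4 of these genes were lower in the authors' deposited table. With TATAAA 4 of 8 H2B genes were lower (median -0.52), against 5 of 6 without it (median -1.08), by the authors' deposited table. For H2A the order was the other way, 7 of 10 with TATAAA and 2 of 5 without it, in the table deposited by the authors. In single-targeted lines 1 of 6 H2B genes with the octamer and 2 of 8 without it were lower in the authors' deposited table, and the 2 H2A genes lower there, Hist1h2ac and Hist3h2a, had the octamer. A match is a description of letters and not of binding.

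Genes that act on histone genes were read from lists, whose counts are small and stand beside 10.1% of all genes lower and 10.8% higher in dual-targeted lines. Of 21 listed genes for histone RNA processing 3 were lower and 4 higher in dual-targeted lines, with a median of 0.16 in the authors' deposited table. Slbp, the stem-loop binding protein, stood at 0.06 (adjusted p = 0.852) in the authors' deposited table. The 3 with the lowest adjusted p were all higher: Cstf2t (0.72, adjusted p = 0.00105), a cleavage factor, and Snrpd3 (0.67) and Snrpg (0.74), which are core proteins of small nuclear ribonucleoproteins, in the authors' deposited table. Of the 3 lower genes, Lsm11 (-0.51, adjusted p = 0.0363) is a subunit of the U7 particle that directs histone RNA cleavage, and Eri1 (-0.48, adjusted p = 0.0121) is an exonuclease that trims histone RNA, in the authors' deposited table. In single-targeted lines 0 of 21 were called in the authors' deposited table, with 2 lower at an unadjusted p under 0.05 and 0 higher.

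Transcription at histone loci was represented by 18 genes, of which 0 were lower and 3 higher in dual-targeted lines by the authors' deposited table, with 2 lower at an unadjusted p under 0.05. These were Ccne1 (0.94), Ccne2 (0.58) and E2f2 (0.73), cyclins and a factor of S phase entry, in the authors' deposited table. Npat stood at -0.14 (adjusted p = 0.602) in dual-targeted and 0.04 (adjusted p = 0.913) in single-targeted lines in the authors' deposited tables. E2f1, an activator of S phase genes, was the 1 gene of this list lower in single-targeted lines, at -0.61 (adjusted p = 0.0440) in the authors' deposited table. Histone genes outside the replication-dependent class had 2 of 11 lower and 1 higher in dual-targeted lines by the authors' deposited table. H2afy (-0.83, adjusted p = 5.79e-04) and H2afy2 (-0.70, adjusted p = 0.00658), which encode macroH2A, were lower and H2afj (1.02), an H2A variant gene, was higher in the authors' deposited table. The linker variants H1f0 and H1fx, outside the clusters, stood at -0.10 and -0.11 without a call in the authors' deposited table.

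The lists that follow are read against the same shares, and against 1.47% of all genes lower and 1.49% higher in single-targeted lines. Of 45 genes for DNA synthesis 2 were lower and 3 higher in dual-targeted lines, with a median of 0.05 in the authors' deposited table. Tk1 (0.92) and Dut (0.72), which supply nucleotides, were higher and Pole (-0.45, adjusted p = 0.0150), a DNA polymerase subunit, was lower in the authors' deposited table. In single-targeted lines Mcm5 (-0.61, adjusted p = 0.00867), a helicase subunit, was the 1 called, 9 were lower at an unadjusted p under 0.05, and the median was -0.10 in the authors' deposited table. Histone chaperones had 2 of 25 lower and 4 higher in dual-targeted lines by the authors' deposited table, with Rbbp7 (0.60) and Asf1a (0.73) among those higher and Ubn1 (-0.61) lower. In single-targeted lines 0 of the 25 were called, with 2 lower at an unadjusted p under 0.05, in the authors' deposited table. Of 15 genes of G2 and mitosis 1 was lower in dual-targeted lines, Aurkb (-0.42, adjusted p = 0.0482), a mitotic kinase, in the authors' deposited table. Genes of G1 arrest and the p53 response had 5 of 9 higher and 1 lower in dual-targeted lines and 5 of 8 higher in single-targeted lines in the authors' deposited tables. Plk2, a p53 target, stood at 2.17 and 1.69 in the authors' deposited tables, and this list's rebuilt means summed to 4153 in wildtype, 6669 in single-targeted and 6846 in dual-targeted lines. Not all genes of the list rose. Cdkn1a was not called, at 0.36 (adjusted p = 0.141) in dual-targeted and 0.09 (adjusted p = 0.777) in single-targeted lines, in the authors' deposited tables. Cdkn1b was the 1 lower in dual-targeted lines, at -0.47 (adjusted p = 0.0394), in the authors' deposited table. The summed levels of the list were higher in both groups, where core histone genes were lower, and their part in that result was not tested.

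**Figure D5:**
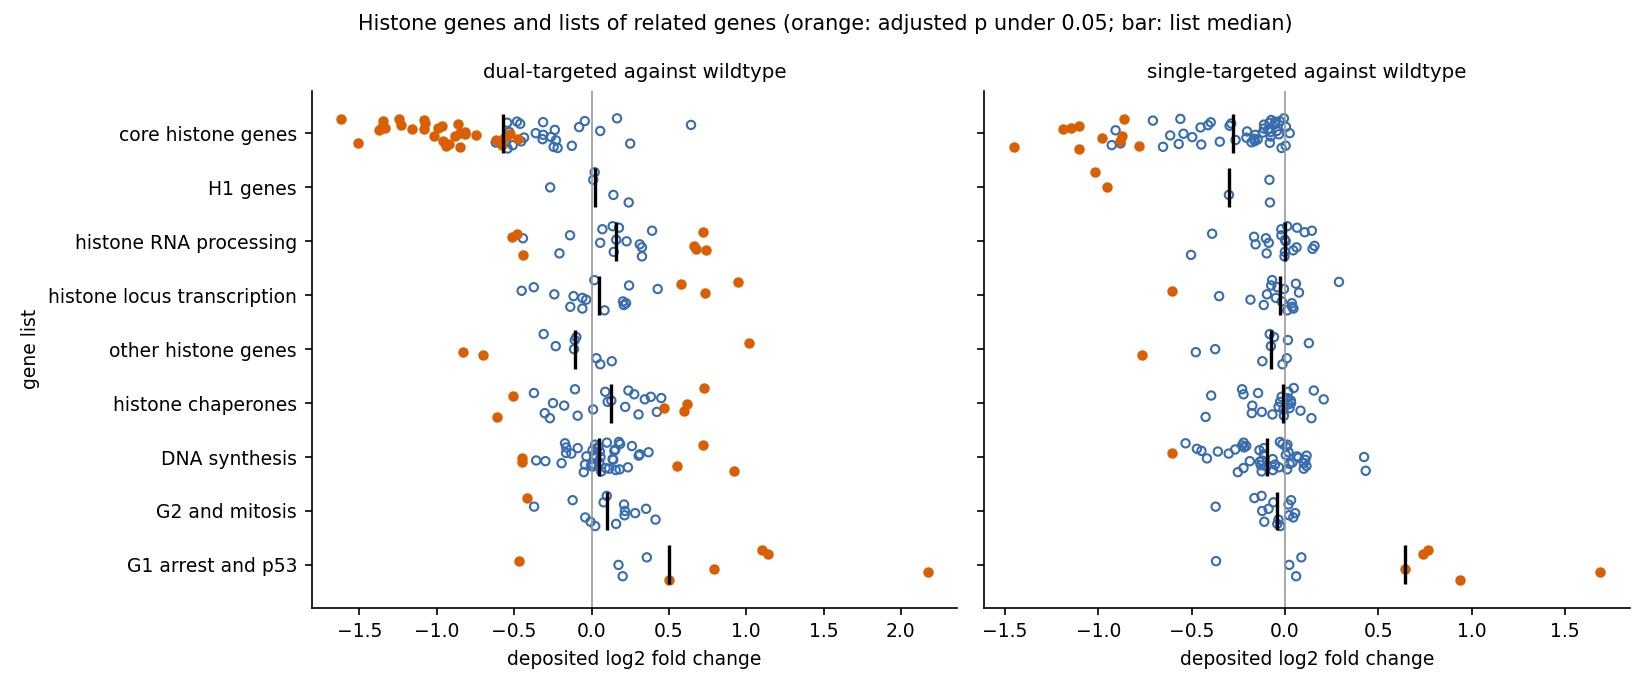
Deposited log2 fold changes (horizontal axes) of core histone genes, H1 genes and lists of related genes (vertical axis) in dual-targeted and single-targeted lines against wildtype, where each circle is a gene, orange marks an adjusted p under 0.05 and bars are medians. Core histone genes spread to the left of 0 in both panels, the medians of the DNA synthesis genes are 0.05 and -0.10, and 5 genes of the G1 arrest and p53 list are higher in each panel.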

How the data were processed

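TT-seq libraries of 3 wildtype, 2 single-targeted and 3 dual-targeted E14 cultures were compared by the authors in 4 tables, each normalized and fitted separately. Tools listed in the submitters' processing notes are DESeq2, featureCounts, STAR, deepTools and SAMtools, with mm10 and GRCm38.p6 as builds. Tool versions, the strand setting and the shrinkage estimator are not given in the sources used here. Per the file headers, the first values are the authors' means of normalized counts (a signal averaged over the libraries compared). The deposited log2 fold changes and their standard errors are read as shrunken, since for 100% of called genes they were smaller than the p implies. The authors computed each p-value and its adjustment with DESeq2, per the file headers and the submitters' processing notes, and an empty adjusted p was kept empty. Mutant lines were profiled once each, so the mutant spread behind these p-values lies between lines, which differ in genotype within the single-targeted and dual-targeted groups. The wildtype spread lies between replicate libraries, and the p-values do not separate these sources. All comparisons with wildtype share its libraries. The depth of single libraries is unknown and bears on these values through the deposited standard errors.

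Group means were rebuilt by subtraction, with tables scaled by 0.984, 1.06 and 0.957 to bring the median gene of every group to its wildtype level. This step was chosen after seeing the files and was tested on simulated data. The simulation had few changed genes and no spread between libraries beyond depth and counting noise. It therefore does not give the error of the rebuilt means here. For 100% of 2726, 387, 885 and 2504 called genes the rebuilt ratio had the sign of the fold change, which is positive where the mutant, or the dual-targeted group, is higher. Calls used an adjusted p under 0.05. The members, the lists and the tests were chosen with earlier results of these data known. Within each class the genes named were up to 6 by adjusted p in dual-targeted and up to 3 in single-targeted lines, the member of highest mean count and every member called in dual against single, with up to 3 genes of each other list and H3f3a and H3f3b. Other genes named, among them further genes of the lists, were chosen after their values were seen. Positions came from GENCODE release M21, which held 98.6% of the symbols, and promoters from RefSeq. Stretches of 50 bases and promoter motifs were matched exactly, and stem-loops by a pattern that allows alternative bases in stem and loop. Alternatives were a stricter adjusted p of 0.01, a mean count of 50, adjustment over all genes, removal of chromosomes 8, 14 and Y, a fold of 0.5, removal of identical copies, centring, a trend on length and the clones alone. The scripts ran in Python 3.11.15 with pandas 2.3.3, numpy 2.4.6, statsmodels 0.14.6 and matplotlib 3.10.9.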

Additional observations from a re-analysis of the deposited data

Results flagged for a closer look

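The 5 H1 genes stood out because their change against wildtype differed between the dual-targeted and single-targeted lines, by the authors' direct comparison of those groups. The log2 difference in the authors' deposited table was 1.47 for Hist1h1e, 1.13 for Hist1h1a, 0.89 for Hist1h1b, 0.71 for Hist1h1d and 0.61 for Hist1h1c, higher in dual-targeted lines. Each was below wildtype in single-targeted lines by rebuilt means and between -0.35 and 0.37 from wildtype on the log2 scale in dual-targeted lines. The 2 single-targeted lines enter only as a mean, so whether both carry the lower H1 level was not tested.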

How the results depend on the processing

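Of the results that answer a comparison, 68 alternatives stayed within a set margin of the reported count or median. The margin was a fixed ratio for counts and the median standard error for medians, so sizes within it did change. An adjusted p under 0.01 also left fewer histone genes lower in dual-targeted and in single-targeted lines, within that margin. With an adjusted p under 0.01, the histone genes lower in the clones numbered 19 in place of 31, and those higher in dual-targeted against single-targeted lines 2 in place of 5, both from the stricter threshold itself. Restricted to members with at most 50% of their 50-base stretches shared, an alternative chosen after seeing the data, 17 were lower in dual-targeted lines and 18 in the clones, since fewer genes were counted. Without the third dual-targeted line (replicate 3) 31 were lower in place of 30, with the median at -0.64 in place of -0.54, and Hist4h4 passed the threshold at -0.66, where the cause was not tested. Other libraries could not be left out, because the tables hold comparisons. For single genes named, 212 alternatives kept the call. Most of these only redid the adjustment of p, with the same fold change, so they could not test direction. The others used the clones, whose libraries are part of the dual-targeted comparison. No paired analysis was possible because the tables hold no values per library and no column carries a replicate number. Low counts limit every comparison, with 12 histone genes under a mean count of 100 left without an adjusted p in dual-targeted against single-targeted lines and 2 in single-targeted against wildtype.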
